A study of Mus musculus with 21 samples.

Results

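Expression of 10 mitosis and cytokinesis genes, Plk1, Aurka, Aurkb, Bub1, Nuf2, Tpx2, Racgap1, Nde1, Mki67 and Ckap2, was followed in sorted mouse bone marrow cells, out of 30519 genes in the count table. All 10 were found by Entrez ID. They were selected on measured values of these same libraries, namely their levels in WT MEP against WT HSC and in mutant HSC against WT HSC, so those contrasts are given below as a description with no test. Low-input RNA libraries were made from 2 sorted populations, stem cells of the blood (HSC) and progenitors of the megakaryocyte and erythroid lines (MEP), of mice carrying changes in Etv6, which encodes a transcriptional repressor of the ETS family. The groups were MEP with P216L (3 libraries), S211I (2), both changes (the double mutant, 3) or WT Etv6 (2), and HSC with P216L (3), S211I (2), both changes (3) or WT Etv6 (3).

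No agent or treatment is named in the labels, nor are age, sex, zygosity, how the alleles were made, or whether any 2 libraries share an animal. The p-values below therefore reflect library-to-library spread, which may be technical. For one allele the title and the genotype field differ (S211I and P211I), and the name follows the title. In bulk libraries of this kind, fewer cells of a type and less RNA per cell cannot be told apart.

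The depth differed by cell type. Libraries from MEP held 3387389 to 12130358 counts and those from HSC 151216 to 2250654 counts, except HSC S211I replicate 2 with 13154016. That library stood apart from its label. Its summed level of 12 stem cell markers was 224 CPM (counts scaled to one common library total), against 1327 to 3226 CPM in the other mutant HSC libraries and 3591 to 6005 CPM in WT HSC. In MEP the same sum was 30.6 to 69.7 CPM. Its 14 erythroid markers summed to 22729 CPM, where MEP ran from 21900.4 to 26683 CPM. It is shown apart below, and most results that rest on it are also given without it. Epor, the erythropoietin receptor gene that marks erythroid progenitors, was at 0 in 2 of 3 WT HSC libraries, and Procr, a stem cell surface marker, was at 0 in 6 of 10 MEP libraries.

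Mitosis separates the copied chromosomes on a spindle of microtubules, and cytokinesis then divides the cell. Genes for this machinery are switched on together late in the cell cycle, largely through the B-Myb and FoxM1 factors, and are low in resting cells. Most stem cells of the adult marrow are quiescent, while erythroid and megakaryocyte progenitors divide often, and megakaryocytes later copy their genome without dividing. In the set, Plk1, Aurka and Aurkb encode kinases that drive entry into mitosis, spindle assembly and chromosome attachment. Bub1 is a kinase of the spindle checkpoint, and Nuf2 is a subunit of the NDC80 complex that ties kinetochores to microtubules. Tpx2 activates Aurora A on the spindle, Nde1 helps to anchor dynein at the kinetochore and centrosome, and Ckap2 binds and stabilises spindle microtubules. Racgap1 is the GTPase-activating subunit of centralspindlin, which places the cleavage furrow, and Mki67 encodes Ki-67, which coats mitotic chromosomes and is used as a marker of cycling cells.

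Promoter windows of 300 bases (250 before the annotated start to 50 after it) were taken from RefSeq (GRCm38.p6), which held a window for 8 of the 10 genes and none for Aurkb or Tpx2. Of these, 6 are shown: Nuf2, Racgap1, Nde1 and Ckap2, which had no counts in WT HSC, and Plk1 and Bub1, which carry the 2 spellings of the cell cycle homology region (CHR). Each is printed 5′ to 3′ on the strand of the gene. Capitals mark the CHR, TTTGAA or TTCGAA, the CCAAT box and the ETS core CCGGAA, on either strand, so that ATTGG and TTCCGG are the last 2 motifs read on the other strand.
Plk1 (chr7:122159185-122159484, + strand): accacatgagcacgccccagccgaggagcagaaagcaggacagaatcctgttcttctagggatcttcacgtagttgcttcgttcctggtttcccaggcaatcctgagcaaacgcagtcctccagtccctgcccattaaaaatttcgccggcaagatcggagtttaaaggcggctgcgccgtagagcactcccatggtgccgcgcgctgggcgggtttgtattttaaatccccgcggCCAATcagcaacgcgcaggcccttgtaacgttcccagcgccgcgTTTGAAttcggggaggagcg
Bub1 (chr2:127831810-127832109, - strand): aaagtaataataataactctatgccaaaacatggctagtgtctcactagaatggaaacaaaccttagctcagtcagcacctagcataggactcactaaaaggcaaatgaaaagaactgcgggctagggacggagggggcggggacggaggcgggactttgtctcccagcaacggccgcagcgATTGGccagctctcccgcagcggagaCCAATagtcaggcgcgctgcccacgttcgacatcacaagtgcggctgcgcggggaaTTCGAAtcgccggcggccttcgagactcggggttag
Nuf2 (chr1:169531415-169531714, - strand): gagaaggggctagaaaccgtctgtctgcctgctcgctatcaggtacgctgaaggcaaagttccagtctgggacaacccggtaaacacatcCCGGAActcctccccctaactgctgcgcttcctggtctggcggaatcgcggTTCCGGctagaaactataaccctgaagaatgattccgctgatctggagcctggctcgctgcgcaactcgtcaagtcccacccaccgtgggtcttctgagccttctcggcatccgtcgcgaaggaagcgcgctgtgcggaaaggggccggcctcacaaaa
Racgap1 (chr15:99651607-99651906, - strand): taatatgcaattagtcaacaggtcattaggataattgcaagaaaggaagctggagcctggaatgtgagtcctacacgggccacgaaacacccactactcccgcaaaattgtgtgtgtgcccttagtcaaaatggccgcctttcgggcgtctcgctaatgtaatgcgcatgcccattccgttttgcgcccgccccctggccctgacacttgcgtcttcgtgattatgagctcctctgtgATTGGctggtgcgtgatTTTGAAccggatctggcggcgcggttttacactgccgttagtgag
Nde1 (chr16:14163025-14163324, + strand): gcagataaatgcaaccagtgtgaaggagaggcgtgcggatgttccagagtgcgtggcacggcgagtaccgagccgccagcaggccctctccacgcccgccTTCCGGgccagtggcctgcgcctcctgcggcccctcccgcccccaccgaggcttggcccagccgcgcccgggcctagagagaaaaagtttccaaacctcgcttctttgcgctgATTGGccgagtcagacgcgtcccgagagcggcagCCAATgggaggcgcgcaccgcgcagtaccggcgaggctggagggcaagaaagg
Ckap2 (chr8:22185770-22186069, - strand): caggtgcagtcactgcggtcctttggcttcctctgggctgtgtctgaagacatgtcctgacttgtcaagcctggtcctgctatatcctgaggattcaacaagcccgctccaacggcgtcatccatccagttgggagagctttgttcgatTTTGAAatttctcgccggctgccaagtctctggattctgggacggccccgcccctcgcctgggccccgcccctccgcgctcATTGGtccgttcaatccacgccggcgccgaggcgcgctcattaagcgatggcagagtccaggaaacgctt

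Motif searches covered both strands, and TTCGAA, which reads the same on both, was counted once. Positions are counted from the annotated start as 1, negative upstream, with no position 0. In Plk1 a CHR began at position 31 and a CCAAT box at −14, and in Racgap1 a CHR began at 6 with a CCAAT box on the other strand at −12. In Ckap2 a CHR began at −101, with a CCAAT box on the other strand at −20. The Bub1 window held the TTCGAA form at 15 and 2 CCAAT boxes. In Nde1 these letters gave 2 CCAAT boxes and 1 ETS core but no CHR, and in Nuf2 they gave 2 ETS cores and neither a CHR nor a CCAAT box. Across the 8 windows, 6 (75%) held either CHR spelling, against 19.2% of all 32851 windows and 67.8% of 59 windows from a wider list of 64 mitosis genes. A CCAAT box was in 7 of 8 windows (87.5%), against 37.4% of all windows and 62.7% of the wider list windows. The ETS core was in 4 of 8 (50%), against 14.9% of all windows and 40.7% of the wider list windows. A match describes letters in the window and is not evidence that a factor was bound.

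**Figure D1:**
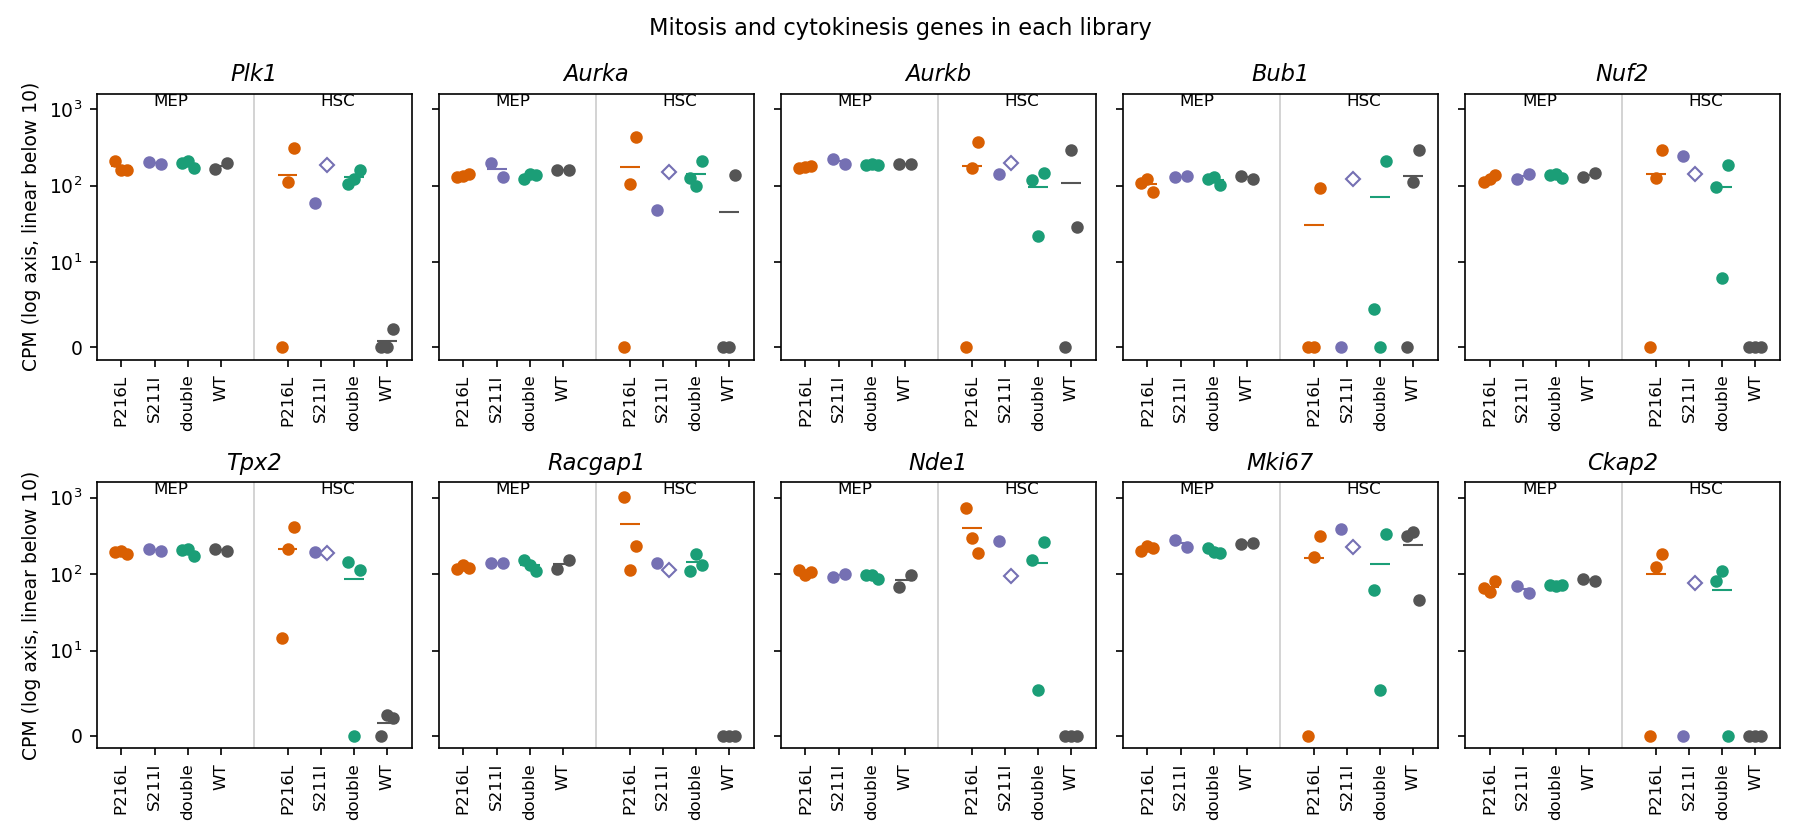
Level of each gene in every library, in CPM on a log axis that is linear below 10, for MEP (left of the grey line) and HSC (right); points are libraries, the open diamond is HSC S211I replicate 2, and bars are group means, not drawn for S211I HSC. The MEP points of each gene lie close together, and the HSC points run from 0 to 1005 CPM.

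In MEP all 10 genes were detected in all 10 libraries, and their levels varied little. The coefficient of variation (SD as a percentage of the mean) over the 10 MEP libraries ran from 6.80% for Tpx2 to 15.5% for Aurka. Its median was 11.4%, against 19.2% over the 12036 genes that passed the filter in a joint fit of both cell types. Those genes were not matched to the 10 in level. Over the 10 HSC libraries without S211I replicate 2, the 10 genes ran to a median of 120%, against 137% over the same 12036 genes.

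The kinase gene Plk1 stood at 213, 162 and 162 CPM in P216L MEP, 203 and 189 CPM in S211I MEP and 199, 211.4 and 170.4 CPM in double mutant MEP, against 166 and 195 CPM in WT MEP. The groups overlapped. Aurka stood at 130.4, 132 and 140.2 CPM in P216L MEP, 198 and 129 CPM in S211I MEP and 124, 141 and 138 CPM in double mutant MEP, against 161 and 159 CPM in WT MEP. Every P216L and every double mutant library lay below both WT libraries, while S211I replicate 1 lay above them. Aurkb stood at 172, 174 and 178 CPM in P216L MEP, 221 and 192 CPM in S211I MEP and 188, 194 and 187 CPM in double mutant MEP, against 195 and 194 CPM in WT MEP. All P216L libraries lay below WT, and the other groups overlapped WT.

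The checkpoint kinase gene Bub1 stood at 109.8, 120.4 and 81.5 CPM in P216L MEP, 128 and 132 CPM in S211I MEP and 123, 130.5 and 101 CPM in double mutant MEP, against 134 and 122 CPM in WT MEP. All P216L libraries lay below the WT libraries, and the others overlapped them. Nuf2, of the NDC80 complex, stood at 109.9, 123 and 136 CPM in P216L MEP, 122 and 142 CPM in S211I MEP and 136, 143 and 125 CPM in double mutant MEP, against 128 and 145 CPM in WT MEP, with overlap throughout. The spindle activator gene Tpx2 stood at 197, 200.4 and 181 CPM in P216L MEP, 210.9 and 199 CPM in S211I MEP and 204, 210.3 and 170.0 CPM in double mutant MEP, against 212 and 199.6 CPM in WT MEP. Here too the groups overlapped.

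Racgap1, of centralspindlin, stood at 118, 132 and 119.6 CPM in P216L MEP, 139 and 141 CPM in S211I MEP and 153, 133 and 109.9 CPM in double mutant MEP, against 117 and 152 CPM in WT MEP. All groups overlapped WT. Nde1, the dynein anchor gene, stood at 112, 97.1 and 107 CPM in P216L MEP, 92.9 and 102 CPM in S211I MEP and 97.2, 97.1 and 86.9 CPM in double mutant MEP, against 68.1 and 97.5 CPM in WT MEP. WT replicate 1 was the lowest library of all, and all groups overlapped. Mki67 stood at 199, 231 and 218 CPM in P216L MEP, 279 and 228 CPM in S211I MEP and 218, 193 and 190.1 CPM in double mutant MEP, against 249 and 255 CPM in WT MEP. All P216L and double mutant libraries lay below WT. Ckap2 stood at 64.9, 58.6 and 80.6 CPM in P216L MEP, 69.9 and 57.4 CPM in S211I MEP and 72.0, 69.5 and 71.2 CPM in double mutant MEP, against 87.1 and 81.2 CPM in WT MEP. Every mutant library of every genotype lay below both WT libraries.

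These MEP contrasts were not themselves used in choosing the genes and were tested. Their WT MEP libraries did serve in the choice, through WT MEP against WT HSC. A choice for high WT MEP values can push mutant estimates below WT. The tests and the counts of libraries below WT are therefore not independent of the choice. Counts were fitted with edgeR's quasi-likelihood test over all 10773 genes that passed the low-count filter, and p-values were adjusted by the Benjamini-Hochberg method at 0.05. None of the 10 genes passed in any of the 3 contrasts. Over all genes, 0% passed in P216L MEP, 0% in S211I MEP and 0.102% (11 genes) in double mutant MEP. At an unadjusted p under 0.05 the 10 genes gave 0 in P216L, 1 in S211I and 1 in double mutant MEP, against 5.12%, 4.74% and 5.24% of all genes. DESeq2 called 0 of the 10 in each, and 0.0279%, 0% and 0.232% of all genes.

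The 2 genes below 0.05 before adjustment were Ckap2 in S211I MEP (log2 fold change −0.44 ± 0.19, adjusted p = 0.939, edgeR) and Mki67 in double mutant MEP (−0.35 ± 0.13, adjusted p = 0.841, edgeR). Counted by library, 5 of the 10 genes lay below WT throughout in P216L, 1 in S211I and 3 in the double mutant. Over all genes tested, 6.97%, 15% and 11% lay below WT in every mutant library of the same genotypes. Of the 10, 0 lay above WT throughout, and the share above WT was not taken over all genes. The 30 log2 fold changes ran from −0.44 to 0.33, and all 95% intervals lay within −0.83 to 0.66. These intervals bound the size of any MEP difference in the set, and they do not show that the genotypes are alike.

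**Figure D2:**
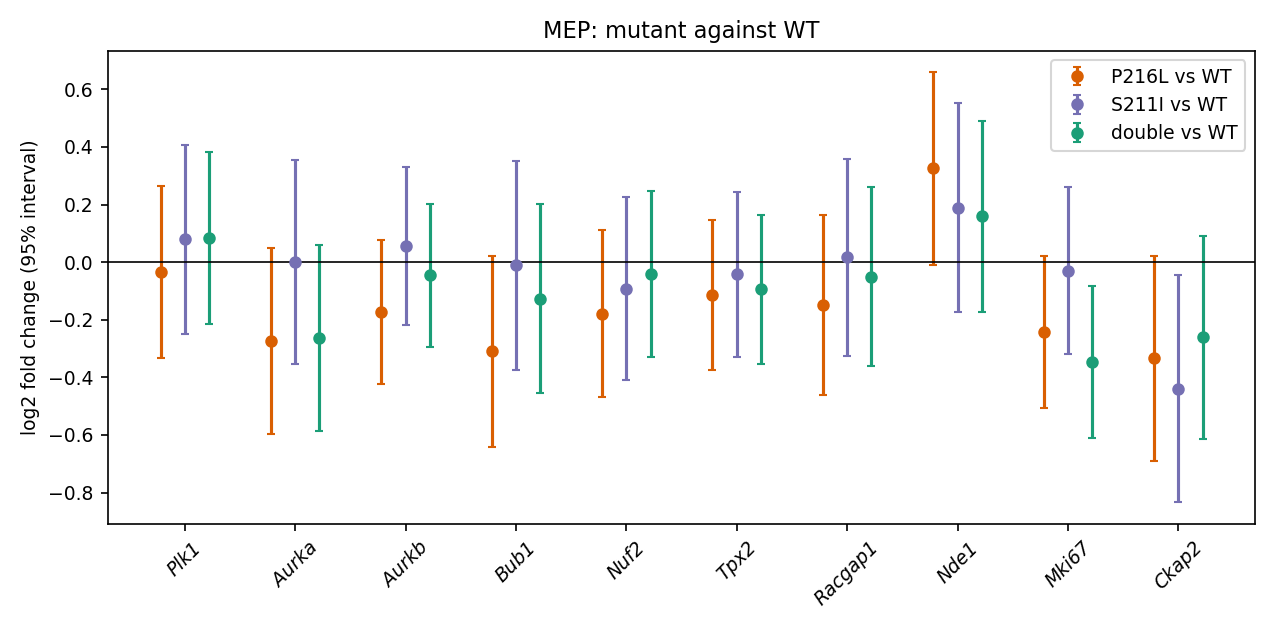
Log2 fold change in each mutant MEP group against WT MEP for the 10 genes, with edgeR's 95% intervals; points are colored by genotype. The 30 points lie between −0.44 and 0.33, and only the intervals of Ckap2 in S211I and Mki67 in the double mutant exclude 0 before adjustment.

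In HSC these genes had few counts. Of the 10 genes, 3, 9 and 10 reached 3 counts in P216L HSC, 8 in S211I replicate 1 and 10, 6 and 9 in double mutant HSC, against 1, 3 and 4 in WT HSC. In S211I replicate 2 all 10 reached it. For scale, 3 counts amount to 19.8, 7.31 and 6.24 CPM in the 3 WT libraries, so a WT value of 2.08 or 2.44 CPM is a single count. The values that follow chose these genes and are described only.

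Among the kinase genes, Plk1 stood at 0, 111 and 307 CPM in P216L HSC, 58.8 CPM in S211I replicate 1 and 104, 122 and 159.5 CPM in double mutant HSC, against 0, 0 and 2.08 CPM in WT HSC; S211I replicate 2, apart, held 185 CPM. It was near 0 in all WT libraries and above them in every mutant library but P216L replicate 1, which was at 0. Aurka stood at 0, 104 and 426 CPM in P216L HSC, 47.5 CPM in S211I replicate 1 and 126, 97.4 and 209 CPM in double mutant HSC, against 0, 0 and 137 CPM in WT HSC; S211I replicate 2, apart, held 153 CPM. WT replicate 3 lies among the mutant libraries, so the groups overlap. Aurkb stood at 0, 169.5 and 376 CPM in P216L HSC, 140.3 CPM in S211I replicate 1 and 117, 21.7 and 145 CPM in double mutant HSC, against 0, 292 and 29.1 CPM in WT HSC; S211I replicate 2, apart, held 195 CPM. WT replicate 2 was among the highest of all, and the groups overlap.

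Bub1 stood at 0, 0 and 91.8 CPM in P216L HSC, 0 CPM in S211I replicate 1 and 4.49, 0 and 209 CPM in double mutant HSC, against 0, 112 and 289 CPM in WT HSC; S211I replicate 2, apart, held 121 CPM. It was detected in 2 WT libraries, and WT replicate 3 was the highest library. Nuf2 stood at 0, 124 and 295 CPM in P216L HSC, 247 CPM in S211I replicate 1 and 96.8, 8.12 and 184 CPM in double mutant HSC, against 0, 0 and 0 CPM in WT HSC; S211I replicate 2, apart, held 139.7 CPM. It had no counts in any WT library, and in the mutants only P216L replicate 1 was at 0. Tpx2 stood at 14.8, 212 and 409 CPM in P216L HSC, 195 CPM in S211I replicate 1 and 146, 0 and 112 CPM in double mutant HSC, against 0, 2.44 and 2.08 CPM in WT HSC; S211I replicate 2, apart, held 188 CPM. A WT count was never above 1, but double mutant replicate 2 was at 0.

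Racgap1 stood at 1005, 115 and 233 CPM in P216L HSC, 140.3 CPM in S211I replicate 1 and 110.3, 184 and 133 CPM in double mutant HSC, against 0, 0 and 0 CPM in WT HSC; S211I replicate 2, apart, held 114 CPM. It had no WT count and was found in every mutant library, most in P216L replicate 1. Nde1 stood at 724, 296 and 188 CPM in P216L HSC, 267 CPM in S211I replicate 1 and 151, 5.41 and 265 CPM in double mutant HSC, against 0, 0 and 0 CPM in WT HSC; S211I replicate 2, apart, held 95.4 CPM. It too had no WT count and was found in every mutant library, again most in P216L replicate 1. Double mutant replicate 2 held only 2 counts of it.

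Mki67, the marker of cycling cells, stood at 0, 168 and 312 CPM in P216L HSC, 385 CPM in S211I replicate 1 and 62.2, 5.41 and 339 CPM in double mutant HSC, against 311, 356 and 45.8 CPM in WT HSC; S211I replicate 2, apart, held 229 CPM. WT libraries 1 and 2 were among the highest, so the WT range covers most mutant values. Ckap2 stood at 0, 123 and 182 CPM in P216L HSC, 0 CPM in S211I replicate 1 and 80.2, 108 and 0 CPM in double mutant HSC, against 0, 0 and 0 CPM in WT HSC; S211I replicate 2, apart, held 77.5 CPM. It had no WT count, and 3 of the mutant libraries were at 0 too.

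Every library of the mutant group lay above every WT library for 3 of 10 genes in P216L (Tpx2, Racgap1, Nde1), 5 of 10 in S211I with both replicates (Plk1, Nuf2, Tpx2, Racgap1, Nde1) and 4 of 10 in the double mutant (Plk1, Nuf2, Racgap1, Nde1). Over all 9471 genes tested in HSC the same was true of 4.87%, 16.6% and 11.3%. With S211I replicate 1 alone, Mki67 joined the S211I genes, while the share of 16.6% is for both replicates. No gene of the set lay below WT throughout in any genotype, and the share below WT was not taken over all genes. Since these contrasts chose the set, nothing is read from these counts. Against WT libraries at 0, the floor of 3 counts over the 3 WT libraries together is 2.88 CPM. This floor covers counting error only and not the spread between HSC libraries. Of all 9471 genes, 1169 had no count in any WT HSC library. By counting error alone, mean P216L levels lie at least 48.6-fold (Nuf2), 157-fold (Racgap1), 139.9-fold (Nde1) and 35.3-fold (Ckap2) higher. Mean double mutant levels lie at least 33.5-, 49.5-, 48.9- and 21.8-fold higher on the same terms. Single libraries carried several of these limits. In P216L the bound was 21.6 for Nuf2 and 21.4 for Ckap2 without replicate 3, and 60.3 for Racgap1 and 84.1 for Nde1 without replicate 1. In the double mutant it was 18.2 for Nuf2 and 27.2 for Nde1 without replicate 3, and 13.9 for Ckap2 without replicate 2. In S211I replicate 1 the bounds were 85.6 for Nuf2, 48.7 for Racgap1 and 92.7 for Nde1, with Ckap2 at 0. In S211I replicate 2 they were 48.5, 39.6 and 33.1 for the same genes and 26.9 for Ckap2.

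Summed over the 10 genes, P216L HSC held 1744, 1423 and 2821 CPM, S211I replicate 1 held 1479.6 CPM and double mutant HSC held 998, 552 and 1756 CPM, against 311, 763 and 506 CPM in WT HSC. Only double mutant replicate 2 lay within the WT range. S211I replicate 2 held 1498 CPM. The log2 ratio of group means to WT was 1.92 for P216L, 1.5 for S211I (1.49 without replicate 2) and 1.07 for the double mutant, with no test. For the double mutant it was 0.56 without replicate 3. In P216L replicate 1, Racgap1 and Nde1 made up 99.2% of the sum and the other 8 genes 14.8 CPM. Without these 2 genes the ratios were 1.12, 1.17 and 0.64. This alternative was chosen after seeing the data.

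**Figure D3:**
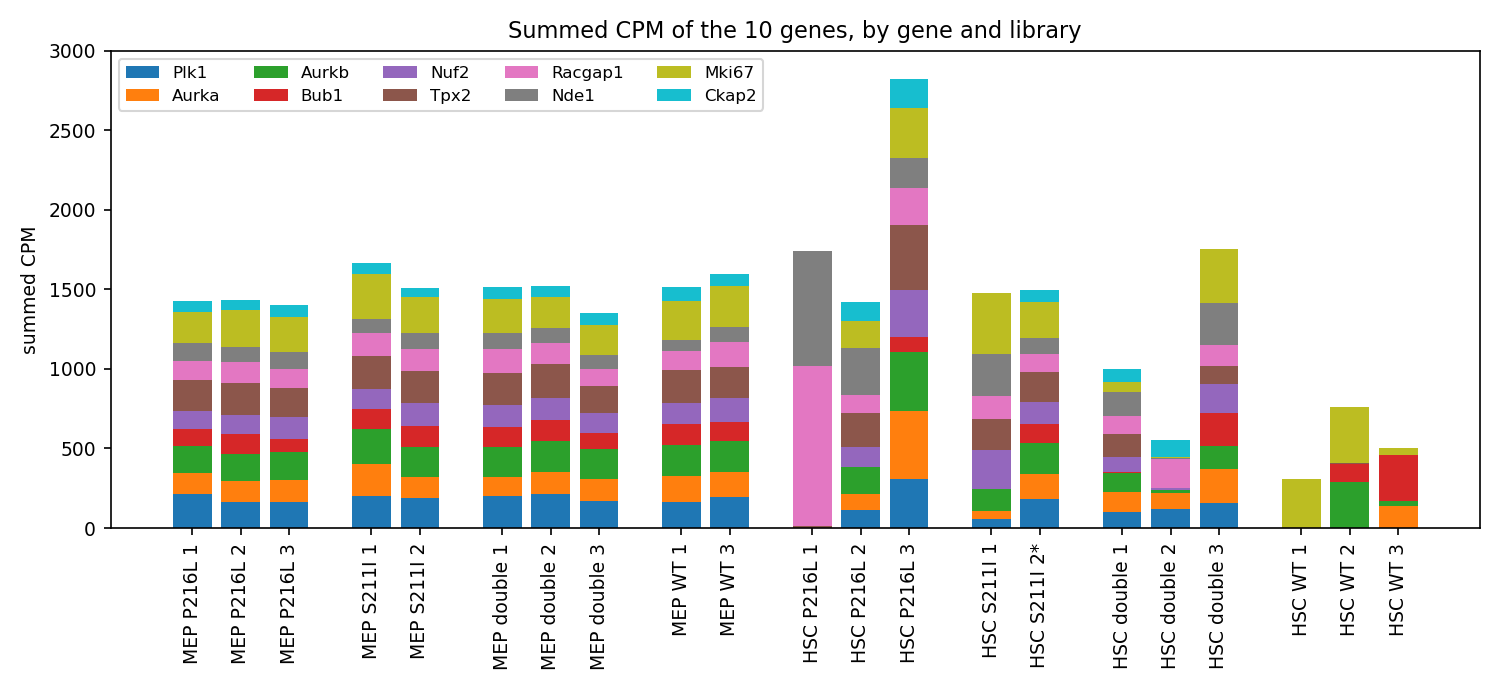
Summed CPM of the 10 genes in each library, stacked by gene, MEP then HSC; the asterisk marks HSC S211I replicate 2. P216L HSC replicate 3 is highest at 2821 CPM and WT HSC replicate 1, made up of Mki67 alone, lowest at 311 CPM.

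In MEP the sum was 1426, 1431 and 1404 CPM in P216L, 1664 and 1512 CPM in S211I and 1514, 1522 and 1349 CPM in the double mutant, against 1517 and 1599.8 CPM in WT. All MEP libraries lay within 1349 to 1664 CPM, and the log2 ratios to WT were −0.13, 0.03 and −0.09. The 2 WT MEP libraries, at 1517 and 1599.8 CPM, lay above all 3 WT HSC libraries, at 311, 763 and 506 CPM, a contrast that served to choose the genes.

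The shallowest library, WT HSC replicate 1, also had the lowest sum. Among the 5 HSC libraries of 369439 to 480419 counts, the sums were 1744 CPM in P216L replicate 1, 1479.6 CPM in S211I replicate 1 and 552 CPM in double mutant replicate 2, against 763 and 506 CPM in WT replicates 2 and 3. At this depth the double mutant library lay between the 2 WT libraries. Of the 10 genes, 30, 90 and 100% reached 3 counts in P216L HSC, against 10, 30 and 40% in WT HSC. Of all 12036 genes, 29.0, 60.7 and 65.6% did so in P216L HSC, against 37.6, 46.3 and 58.2% in WT HSC. The part of depth in the HSC levels was not tested.

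Erythroid markers moved with the sum as well. The 14 of them summed to 7881 to 32215 CPM in mutant HSC without S211I replicate 2, against 4291 to 6955 CPM in WT HSC, and the 12 stem cell markers to 1327 to 3226 CPM in mutants, against 3591 to 6005 CPM in WT. P216L replicate 3 had the highest sum of the 10 genes, the highest erythroid sum (32215 CPM), the highest sum of 15 S phase genes (11517 CPM) and, after S211I replicate 2, the lowest stem cell sum among HSC. P216L replicate 1 held 12819 CPM of 7 endothelial and stromal markers, of which 2 were detected. Double mutant replicate 3 held 3525 CPM and S211I replicate 1 held 1837 CPM, against 350.5 to 1482 CPM in WT HSC. P216L replicates 2 and 3, at 0 and 25.9 CPM, lay below all WT libraries. So did double mutant replicates 1 and 2, at 9.62 and 0 CPM. The 8 neutrophil and monocyte markers summed to 4101, 2517 and 777 CPM in double mutant HSC, against 1137, 448 and 1418 CPM in WT HSC. In P216L HSC their sum was 1579, 614 and 1035 CPM, and in S211I replicate 1 it was 260 CPM. The 6 T and NK cell markers summed to 312, 823 and 268 CPM in double mutant HSC, against 423, 139 and 43.7 CPM in WT HSC. In P216L HSC their sum was 24.6, 80.0 and 0 CPM, and in S211I replicate 1 it was 6.79 CPM. The part of these markers in the result was not tested.

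**Figure D4:**
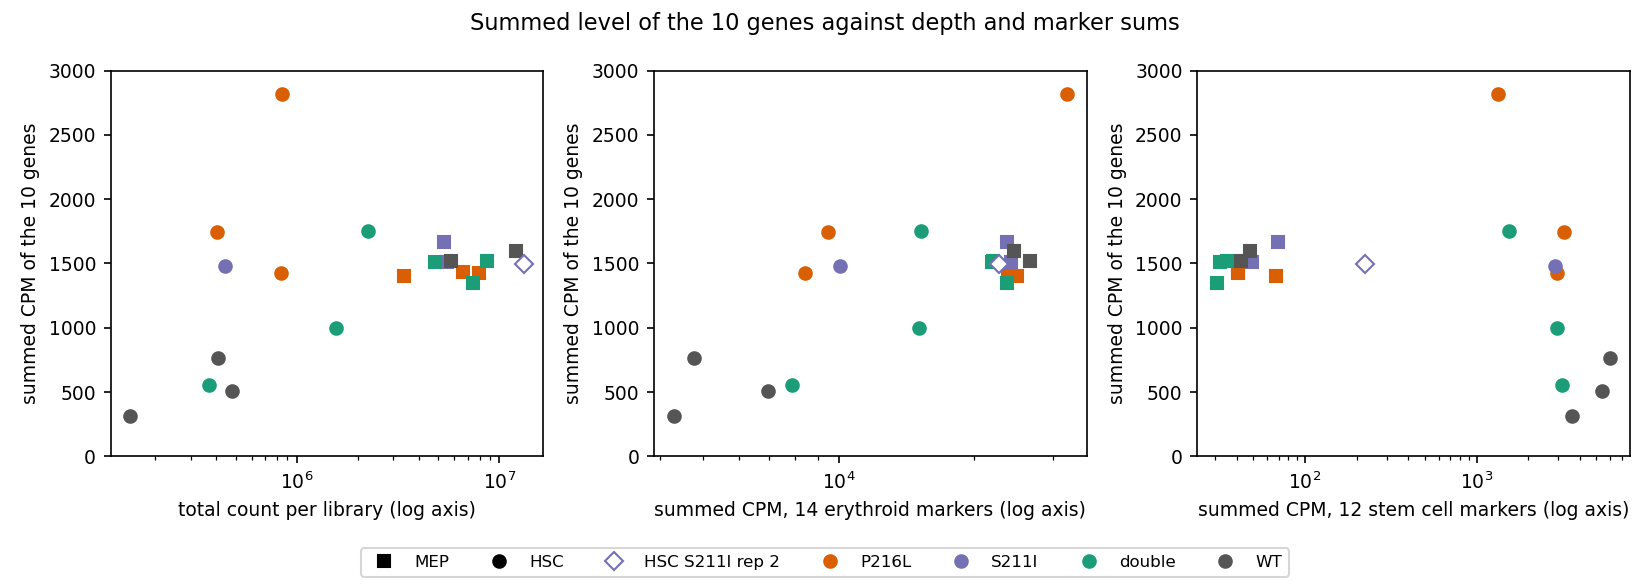
Summed CPM of the 10 genes in each library against total count, summed erythroid markers and summed stem cell markers (log axes); squares are MEP, circles HSC, and the open diamond HSC S211I replicate 2. The diamond lies with the MEP libraries in the first 2 panels and between MEP and the other HSC libraries in the third.

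The cell type difference within the double mutant did not itself serve to choose the genes and was also tested. Its HSC libraries do enter the comparison of mutant with WT HSC, on which the genes were chosen. A choice for high mutant HSC values can shrink the difference of MEP from HSC, so this test is not independent of the choice. MEP stood above HSC by estimate for 9 of 10 genes, against 52.4% of all 12036 genes. The same held for 48 of the 64 genes of the wider mitosis list and 15 of 15 S phase genes. Over the 10 genes, log2 differences ran from −0.46 (Nde1) to 1.32 (Tpx2). None passed in edgeR (adjusted p from 0.717 to 1), against 0.241% of 12036 genes over the joint fit of all libraries, 29 in all. At an unadjusted p under 0.05 the count was 0, against 16.3% of all genes, and DESeq2 called 0 of the 10, against 8.25% of all genes. The 95% intervals spanned −2.79 to 4.34, so this comparison does not set a narrow limit. For Tpx2, the gene with the largest estimate, the values were 204, 210.3 and 170.0 CPM in MEP, against 146, 0 and 112 CPM in HSC. For Racgap1 the values were 153, 133 and 109.9 CPM in MEP, against 110.3, 184 and 133 CPM in HSC, and the groups overlapped.

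The wider list of 64 genes held regulators of mitotic entry, kinetochore, passenger, spindle, cytokinesis, mitotic exit and chromosome structure genes, and all 64 passed the filter. In MEP none was called by edgeR in any genotype, at an unadjusted p under 0.05 the counts were 1, 0 and 4 for P216L, S211I and the double mutant, where the share over all genes was 4.74 to 5.24%, and DESeq2 called 0. Estimates were positive for 21, 44 and 30 of 64, with median log2 fold changes of −0.08, 0.09 and −0.03, where the medians over all genes were 0.01, 0.00 and 0.01. The smallest p-values were those of Anln, a scaffold of the cleavage ring, in P216L MEP (log2 fold change −0.37 ± 0.14, adjusted p = 0.976) and Smc2, a condensin subunit, in double mutant MEP (−0.30 ± 0.12, adjusted p = 0.927). In S211I MEP it was Wee1, the kinase that holds back mitotic entry (−0.40 ± 0.20, adjusted p = 0.939). Next by p were the mitotic kinesin genes Kif20b (0.32 ± 0.18) and Kif18a (−0.33 ± 0.20) in P216L MEP. In S211I MEP they were Foxm1 (0.50 ± 0.26), a transcription factor for mitotic genes, and the kinesin gene Kif11 (0.31 ± 0.17). In double mutant MEP they were Anln (−0.32 ± 0.14) and Foxm1 (0.50 ± 0.23).

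In HSC estimates were positive for 53, 56 and 54 of the 64 genes in P216L, S211I and the double mutant, with medians of 1.32, 1.47 and 1.49, against 0.13, 0.43 and 0.44 over all genes tested. With the 6 list genes that had no WT count set to their lower bound, and likewise any gene with no mutant count, the medians were 1.14, 1.47 and 1.49, against 0.10, 0.36 and 0.41 over all genes. None passed in edgeR, where the threshold called 0.106%, 0.0845% and 0.0739% of 9471 genes, and 8 of the 64 in each genotype had an unadjusted p under 0.05, all higher. Of all genes, 12.9%, 8.15% and 10.5% had one in either direction. Counting higher genes only, 737, 702 and 783 of the 9471 had one. Of the 64 genes, 6 had no WT count and passed the low-count filter only through mutant libraries, as did 1169 of the 9471. All genotypes were also set against the same WT libraries. The counts of 8 are therefore a description, no excess is read from them, and the difference from all genes was not tested. DESeq2 called 2, 1 and 1 of the 64, where it called 4.2%, 1.26% and 2.26% of all genes in either direction, near the background. Without WT replicate 1, edgeR called 1 of the 64 in P216L and 1 in double mutant HSC, and without WT replicate 3 it called 1 in each genotype. Without S211I replicate 2, S211I HSC rested on 1 library, assumed to vary like the others, and its estimates were positive for 34 of 64 genes with a median of 0.46, against −0.03 over all genes. In P216L and double mutant HSC the medians were then 1.27 and 1.46. In that fit edgeR again called 0 of the 64 in each genotype, with 7, 6 and 7 at an unadjusted p under 0.05, against 9.73%, 4.27% and 7.74% of all genes. With all libraries, 52.9, 58.8 and 60.2% of all genes had positive estimates. By subgroup, regulators of mitotic entry were positive for 11, 10 and 11 of 12 genes, kinetochore genes for 11, 12 and 12 of 14, passenger genes for 3, 3 and 3 of 3 and spindle genes for 14, 14 and 11 of 14. Cytokinesis genes were positive for 4, 4 and 4 of 7, mitotic exit genes for 5, 7 and 7 of 8 and chromosome structure genes for 5, 6 and 6 of 6. The S211I subgroup counts include replicate 2 and were not taken without it, where 34 of the 64 genes were positive. The 3 smallest p-values belonged to the same 3 genes in each genotype.

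These were Ncaph, a condensin subunit, Tacc3, which stabilises spindle microtubules, and Spc25, a partner of Nuf2 in the NDC80 complex. Ncaph stood at 0, 174 and 249 CPM in P216L HSC, 52.0 CPM in S211I replicate 1 and 146, 238 and 69.3 CPM in double mutant HSC, against 0, 0 and 0 CPM in WT HSC; S211I replicate 2, apart, held 197 CPM. It had no WT count, and P216L replicate 1 was the only mutant library at 0. Tacc3 stood at 0, 238 and 573 CPM in P216L HSC, 262 CPM in S211I replicate 1 and 92.3, 8.12 and 682 CPM in double mutant HSC, against 0, 4.87 and 20.8 CPM in WT HSC; S211I replicate 2, apart, held 289.6 CPM. WT was low but not at 0 in 2 libraries, and P216L replicate 1 and double mutant replicate 2 lay in or below the WT range. Spc25 stood at 0, 69.2 and 195 CPM in P216L HSC, 127 CPM in S211I replicate 1 and 123, 0 and 195 CPM in double mutant HSC, against 0, 0 and 0 CPM in WT HSC; S211I replicate 2, apart, held 115 CPM. Again WT had no count, and 2 mutant libraries were at 0. DESeq2's calls were Ncaph in each genotype and Spc25 in P216L. Both genes passed the low-count filter only through mutant libraries, so their values are a description and nothing is read from these calls. Within the double mutant, MEP against HSC, none of the 64 passed in edgeR and none had an unadjusted p under 0.05. With only the 2 groups in the fit, edgeR called 1 of the 64 and 729 of all genes. The smallest p was that of Incenp, the passenger complex scaffold (log2 difference 3.02 ± 1.49, adjusted p = 0.315), while DESeq2 called 0. Next were Kif2c, a kinesin that takes microtubules apart (3.21 ± 1.71), and Cep55, of the abscission bridge (−3.91 ± 2.11).

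Of 9069 genes compared over 21 libraries, those whose centred log2 CPM lay nearest to the mean of the 10 genes were Zbtb22 (root mean square difference 0.62), Tspo2 (0.77), Tk1 (0.79), Ankrd17 (0.80), Uhmk1 (0.82) and Mrpl50 (0.82). Tk1, thymidine kinase, is in the S phase list, and none of the 6 is in the wider mitosis list. The 10 genes themselves ran from 1.13 for Plk1, at rank 79 of 9069, to 2.90 for Bub1, at rank 7079. These points share libraries and their depth, so the measure is a description only.

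Aurka overlaps Cstf1 in the annotation, and whether the library kit kept strand is not stated in the labels, so reads of the 2 cannot be told apart where they overlap. Cstf1 stood at 70.3 to 92.3 CPM in MEP and at 0 to 411 CPM in HSC.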

How the data were processed

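Libraries came from fluorescence-sorted HSC and MEP of mouse bone marrow, prepared with a low-input kit, per the labels. The authors deposited one table of estimated counts per gene, with 30519 Entrez genes and 21 libraries. Per the submitters' processing notes, FastQC, Salmon and the assembly GRCm39 were used, with versions not given in the sources used here. Of the nonzero values, between 6.09 and 33.1% per library were not whole, and expected counts were rounded to whole numbers. Symbols were matched for 30211 genes; the other 308 held 0.0442% of counts. CPM is the count divided by the library total and scaled to a common total, with no other factor, and compares libraries, not genes of different length.

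Tests used R 4.3.3, edgeR 4.0.16 (TMM, filterByExpr with a minimum count of 10 and total of 15, robust quasi-likelihood) and limma 3.58.1; DESeq2 1.42.0 was an alternative. HSC, MEP and joint fits were separate, and their biological coefficients of variation were 1.60, 0.174 and 1.06. Thus MEP contrasts are the more precise ones. No 2 libraries of a group agreed within sampling noise (chi-square over degrees of freedom 4.79 or more). Counting error alone sets the floor of 3 counts. Alternatives were RLE scaling, no filter, a replicate block, only the groups compared, and leaving out each library.

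The members and lists were chosen with earlier results of these data known. All 10 members are named; of the wider list, any past the threshold and otherwise the 3 with the smallest p in each contrast. The 6 genes nearest in pattern were named by root mean square difference.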

Additional observations from a re-analysis of the deposited data

How the results depend on the processing

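No gene of the 10 was called in a MEP contrast or in MEP against HSC of the double mutant under any alternative, and none of the 64 wider genes in MEP. Of the 64, 1 was called in MEP against HSC of the double mutant with only the groups compared, and 0 to 1 in each HSC contrast leaving out a library. The number of genes called over the whole table did depend on the processing. For P216L MEP against WT it was 0, but 10 without the low-count filter, 3 with DESeq2 and 0 to 7 leaving out a library. For S211I MEP it was 0 throughout. For double mutant MEP it was 11, but 40 without the filter, 25 with DESeq2, 21 with only the groups compared and 3 to 11 leaving out a library. For P216L HSC it was 10, but 18 with RLE scaling, 0 without the filter, 302 with DESeq2, 0 with only the groups compared, 4 without WT replicate 1 and 25 without WT replicate 3. For S211I HSC it was 8, but 5 with RLE, 0 without the filter, 100 with DESeq2, 0 with only the groups compared, 2 without S211I replicate 2 and 22 without WT replicate 3. For double mutant HSC it was 7, but 0 without the filter, 177 with DESeq2, 0 with only the groups compared and 1 to 24 leaving out a library. For MEP against HSC in the double mutant it was 29, but 47 with RLE, 80 without the filter, 947 with DESeq2, 729 with only the groups compared and 3 to 32 leaving out a library. The cause was not tested. HSC depth limits all HSC values.

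Replicate numbers were checked for pairing between genotypes within a cell type. Same-numbered libraries correlated at −0.07 to 0.25 in HSC (1 of 15 pairs over 0.1) and −0.09 to 0.03 in MEP (0 of 12). Low correlation cannot show that libraries come from different animals. Pairing of HSC with MEP libraries of the same number was not checked. With the replicate number as a block the counts were 0, 0 and 11 in MEP, 12, 15 and 11 in HSC and 19 for MEP against HSC.

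The summed P216L HSC ratio moved to 1.12 without Racgap1 and Nde1. The S211I MEP ratio lay near 0 and changed sign with TMM (−0.010). Fitted values near 0 changed sign too. Aurka in S211I MEP was 0.0025 with RLE, 0.0025 with DESeq2, 0.0036 with only the groups compared and 0.064 under the block, and Racgap1 was −0.020 under the block. In MEP against HSC of the double mutant, Aurka was −0.11 with RLE, −0.11 with DESeq2 and −0.012 with only the groups compared, and Racgap1 was −0.15 with RLE and −0.15 with DESeq2. For P216L MEP against WT, log2 values that changed sign when a library was left out ran as follows: Plk1 −0.18 to 0.073, Racgap1 −0.31 to 0.040. For S211I MEP against WT, log2 values that changed sign when a library was left out ran as follows: Plk1 −0.021 to 0.19, Aurka −0.35 to 0.29, Aurkb −0.060 to 0.16, Bub1 −0.092 to 0.067, Nuf2 −0.20 to 0.0085, Tpx2 −0.099 to 0.012, Racgap1 −0.15 to 0.21, Nde1 −0.030 to 0.46, Mki67 −0.19 to 0.12. For double mutant MEP against WT, log2 values that changed sign when a library was left out ran as follows: Plk1 −0.014 to 0.19, Nuf2 −0.11 to 0.041, Racgap1 −0.21 to 0.14, Nde1 −0.059 to 0.43. For MEP against HSC in the double mutant, log2 values that changed sign when a library was left out ran as follows: Aurka −0.13 to 0.59, Nde1 −0.97 to 0.49, Ckap2 −0.056 to 1.08, Cep55 −4.46 to 6.01.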
